A study of Mus musculus with 20 samples.

Results

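Mouse embryonic stem cell derivatives that express 3 transcription factors of the germ line were compared with derivatives that express 1 of them. The comparison sets 2 arrays of a three-factor line against 2 arrays of a Blimp1 line, both after 1 day with doxycycline, and uses 4 of the 20 arrays of the series. The arrays were chosen by their sample titles alone, and no measured value entered the choice. By their labels the lines differ in the Prdm14 and Tfap2c transgenes, so the comparison addresses what these factors add to, or take from, the response to Blimp1.

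All lines come from the male stem cell line BVSCR26rtTA (C57BL/6;129), which carries a Blimp1-mVenus and a stella-ECFP reporter and the doxycycline-dependent activator rtTA at Rosa26. The Blimp1 line (clone #2-4) also carries Avi-tagged Blimp1, and the three-factor line (clone #3-3) carries Avi-Blimp1, 3xFLAG-Prdm14 and V5-Tfap2c. Each transgene sits in a piggyBac vector behind a tetOx8-mCMV promoter and is followed by an IRES and beta geo. Stem cells kept in 2i and LIF were turned for 36 h into EpiLCs (epiblast-like cells), and 2000 cells per well were then aggregated for 24 h in GK15 with 1.5 µg/ml doxycycline. Whole aggregates were harvested, and the same lines were also measured as EpiLCs before doxycycline. A Prdm14 line (clone #7-109), a Tfap2c line (clone #8-2) and the parental line with no factor, each on day 1 with doxycycline, served for reference. Each line is 1 clone, so the factors and the clone cannot be told apart, and aggregates without doxycycline were not analysed here.

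Blimp1 (the protein of Prdm1), Prdm14 and Tfap2c (AP2γ) are the core transcription factors of mouse primordial germ cells, the embryonic precursors of sperm and eggs. Blimp1 is known as a repressor of somatic programmes, Prdm14 for its part in naive pluripotency and in the silencing of de novo DNA methylation, and Tfap2c as a factor that acts downstream of Blimp1. Germ cell specification combines loss of the primed epiblast and somatic programmes, return of pluripotency genes and onset of germ line genes.

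Values are on a log2 scale and ran from 0 to 13.83 on the 20 arrays. The medians of the 4 arrays were 4.60 and 4.81 in the three-factor line and 4.86 and 4.68 in the Blimp1 line, and replicates correlated over all probe sets at Pearson r of 0.9661 and 0.9736. Each gene is represented by its brightest probe set, and 14002 genes above a filter level of 3.95 were tested. A gene was called when its limma p, adjusted by Benjamini-Hochberg over all genes, was under 0.05 and its difference was at least 1. Differences are three-factor line minus Blimp1 line on the log2 scale, with the limma standard error (SE), and n is 2 arrays per line. The series description calls the arrays biological duplicates without saying what was separate. The number of arrays limits the precision, and in whole aggregates a change in the share of a cell type and a change in RNA per cell cannot be told apart. All 12 markers of EpiLC and aggregate identity, such as Pou5f1, Sox2 and Cdh1, lay above the filter level in every day 1 group. Their levels were not all alike. Nanog was called higher in the three-factor line, Dnmt3b and Pou3f1 were called lower, and 9 were not called.

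The factors' own genes were read first. Prdm1 read 8.63 and 8.71 in the three-factor line against 6.25 and 6.47 in the Blimp1 line, although both carry the Blimp1 transgene. It was higher by 2.31 ± 0.13 (SE; adjusted p = 1.05e-07), and the groups did not overlap. Its mean was 7.31 in the Prdm14 line and 4.96 in the parental line, so that the Prdm14 line lay above the Blimp1 line. The main comparison therefore does not hold the Prdm1 level equal, and the part of that level in the other differences was not tested. Tfap2c read 11.55 and 11.58 against 9.38 and 9.81, a difference of 1.97 ± 0.13 (adjusted p = 3.8e-07). In the Tfap2c line, however, the same Tfap2c probe set gave a mean of 5.94, below the 6.33 of the parental line, and the 2 other Tfap2c probe sets were also not raised there. Prdm14 read 3.40 and 4.67 against 3.95 and 4.05, with a difference of 0.04 ± 1.15 that was not called, and its mean in the Prdm14 line was 3.50. The levels of Prdm1, Prdm14 and Tfap2c on these arrays therefore give no check of the transgenes named in the labels, and where the probes lie within the transcripts was not analysed here.

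Of the 14002 genes, 347 rose in the three-factor line relative to the Blimp1 line (2.48%) and 555 fell (3.96%). The median difference was -0.03 over all genes, 1.49 over those that rose and -1.43 over those that fell. In 90 of the 347 and 132 of the 555 the lower group mean lay under the filter level, where the size of a difference is approximate. Before doxycycline the lines were much closer. In EpiLCs 5 genes were called (0.0357%), and 1147 had an unadjusted p under 0.05. The day 1 arrays had 5259 such genes. Jam2, an adhesion molecule of tight junctions, had the largest EpiLC difference, with means of 7.17 in the three-factor line and 3.28 in the Blimp1 line. Its day 1 values of 7.56 and 7.56 against 4.61 and 4.11 kept that distance, and the difference between the stages, -0.69, was not called. Other kept probe sets of Jam2 differed on day 1 by 0.67 to 2.95. Dync2h1, a motor of cilia, and Prr3 were the other genes called in EpiLCs and on day 1, with day 1 differences of 1.60 and 1.39. Grin2d, a glutamate receptor subunit, was called lower in EpiLCs (-1.99) and was not called on day 1 (0.42).

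The change from EpiLCs to day 1 differed between the lines in 823 genes (5.88%), 334 of them upward in the three-factor line and 489 downward. Over the 347 genes that rose on day 1, the median EpiLC level was 6.14 in both lines, and the median day 1 level was 7.17 in the three-factor line and 5.62 in the Blimp1 line. In lines whose means do not enter this difference, the same 347 genes had median day 1 levels of 6.96 in the Prdm14 line, 5.78 in the parental line and 5.68 in the Tfap2c line. The 555 genes that fell had median EpiLC levels of 6.30 and 6.34. Their median day 1 levels were 5.58 in the three-factor line and 7.26 in the Blimp1 line, beside 5.62 in the Prdm14 line, 6.91 in the parental line and 6.88 in the Tfap2c line.

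**Figure D1:**
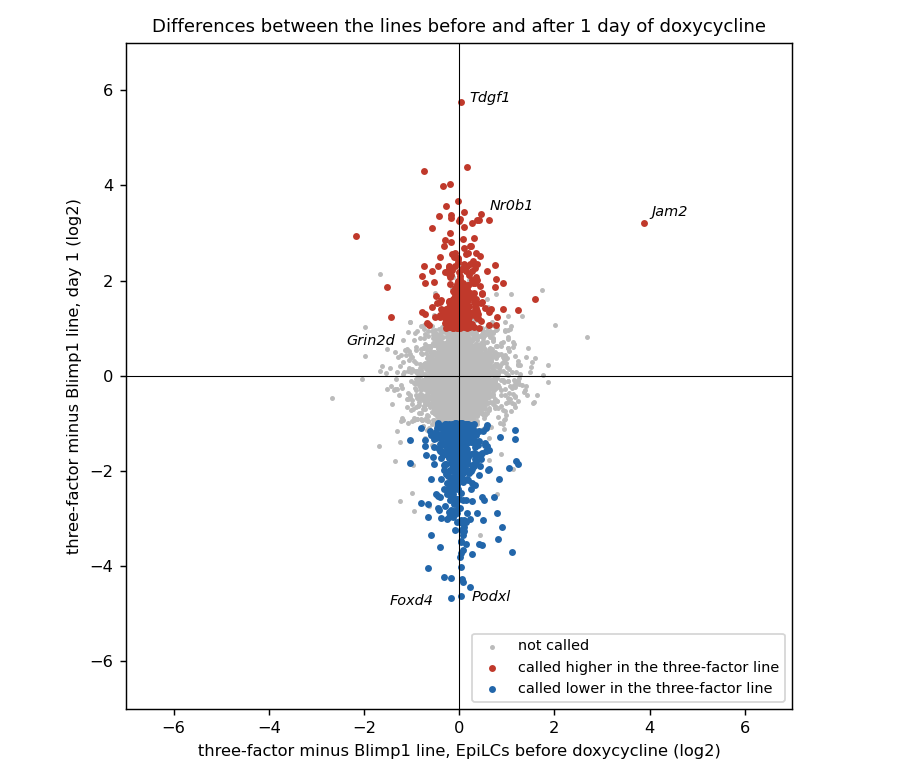
Each point is 1 of the 14002 genes, placed by the difference between the three-factor and the Blimp1 line in EpiLCs (x axis, log2) and on day 1 (y axis, log2), with the 347 genes that rose in red, the 555 that fell in blue and the rest in grey. Called genes lie along the vertical axis, and Jam2 stands apart on the right with an EpiLC difference of 3.88.

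Tdgf1 (Cripto), the co-receptor of Nodal, showed the largest difference of all genes tested. It read 11.70 and 11.54 in the three-factor line and 5.87 and 5.87 in the Blimp1 line, a difference of 5.75 ± 0.08 (adjusted p = 4.71e-13). The Blimp1 line was the one that stood apart: parental, Prdm14 and Tfap2c lines had means of 12.13, 12.19 and 12.21, and both lines started at 12.46 and 12.44 as EpiLCs. Bcl11b, a zinc finger factor known from T cells, was also lowest in the Blimp1 line, with 6.72 and 6.98 against 3.14 and 3.43 and a parental mean of 6.38. Its difference was 3.56 ± 0.18 (adjusted p = 3.57e-08), and its other kept probe sets differed by 1.93, 1.80 and 0.03. Chst15, a chondroitin sulfotransferase, read 6.46 and 6.53 against 2.95 and 3.30 and 6.58 in the parental line, and its second probe set gave 0.84 in place of 3.37. Calcoco2, an autophagy receptor, rose by 3.98 ± 0.60 (adjusted p = 0.00033) and was at 3.94 in the parental line and 2.74 in the Prdm14 line. None of these 4 genes differed by a called amount between the Prdm14 line and the parental line.

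For other genes with large differences, the Blimp1 line lay closer to the parental line than to the three-factor line. Nr0b1 (Dax1), a nuclear receptor of naive stem cells, read 9.94 and 9.77 against 6.31 and 6.60, a difference of 3.40 ± 0.17 (adjusted p = 4.4e-08). Its parental mean was 6.19 and its mean in the Prdm14 line 10.56. Epas1 (HIF-2α), a hypoxia-inducible factor, read 9.79 and 9.62 against 6.31 and 6.48, a difference of 3.31 ± 0.15, beside 5.45 in the parental and 10.41 in the Prdm14 line. For both genes the Prdm14 line lay above the three-factor line. Hpgd, which breaks down prostaglandins, differed by 3.68 ± 0.20, Zfp819, a zinc finger gene, by 3.30 ± 0.12, and Hesx1, a homeobox gene of the anterior embryo, by 3.27 ± 0.22. With Myc (3.44), Cnpy1, Adgrg6, Car12, Msc and Zyg11a completed the 15 largest rises, at 4.38, 4.30, 4.03, 3.36 and 3.28. Genes named only as clones or expressed sequences were passed over in this ranking and in that of the falls. For Myc, however, the Blimp1 line stood apart below all other lines, as for Tdgf1. The Blimp1-line means of Cnpy1, Adgrg6, Car12, Calcoco2, Bcl11b, Chst15, Msc and Zyg11a lay under the filter level, and the call of Zyg11a was lost (0.68) when values were floored at that level.

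Foxd4, a forkhead factor of the early neural plate, had the largest fall. It read 4.87 and 5.23 in the three-factor line against 9.63 and 9.81 in the Blimp1 line, a difference of -4.67 ± 0.33 (adjusted p = 6.43e-07). Again the Blimp1 line stood apart, since Foxd4 was at 4.08 in the parental, 5.25 in the Prdm14 and 4.16 in the Tfap2c line. Greb1l read 6.77 and 6.82 against 11.26 and 11.22, with 8.90 in the parental line and 6.80 in the Prdm14 line. Penk, the precursor of enkephalin peptides, read 2.83 and 3.83 against 7.48 and 7.66 and was at 5.89 in the parental line and 2.52 in the Prdm14 line. For Greb1l and Penk the parental line thus lay between the lines compared.

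The next 4 genes were near or below their parental level in the Blimp1 line and lower still with 3 factors. Podxl, a sialomucin of the cell surface, read 4.38 and 4.22 against 8.80 and 9.05, a difference of -4.63 ± 0.12 (adjusted p = 2.47e-10), beside 8.85 in the parental line and 4.98 in the Prdm14 line. Its second kept probe set differed by -0.54. Pou3f1 (Oct6), a factor of the primed epiblast and neural precursors, read 6.96 and 6.65 against 11.05 and 11.09, a difference of -4.27 ± 0.11 (adjusted p = 2.47e-10), beside 11.68 in the parental line and 8.37 in the Prdm14 line. Cxcl12, the chemokine that guides migrating germ cells through its receptor Cxcr4, read 4.72 and 5.05 against 8.80 and 9.03, a difference of -4.03 ± 0.23. Pim2, a serine kinase gene, read 6.88 and 6.94 against 10.66 and 10.47 and was at 11.97 in the parental line and 7.63 in the Prdm14 line. In each of these 4 genes, which were chosen for their large differences, the groups were separated by more than 3 log2 units on the probe set used. Gprc5b, an orphan receptor, fell by 4.33 and Gulp1, an adaptor for engulfment, by 3.73. Cldn1, Sox1, Foxp4, Rgma, Spon1 and Pdgfrl completed the 15 largest falls, from -4.26 to -3.56. With Gprc5b and Penk, their three-factor means lay under the filter level. Clone names such as 1700013H16Rik (-4.035) were passed over in this ranking. Other kept probe sets differed by -2.42 and -0.04 for Foxp4 and by -0.57 and -0.63 for Spon1. Flooring ended the calls of Cldn1 and Rgma (-0.94 and -0.88). The Cldn1 call also ended with no filter on dim probe sets (-0.16), and that of Rgma in a fit of the 4 compared arrays alone (adjusted p = 0.0547).

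**Figure D2:**
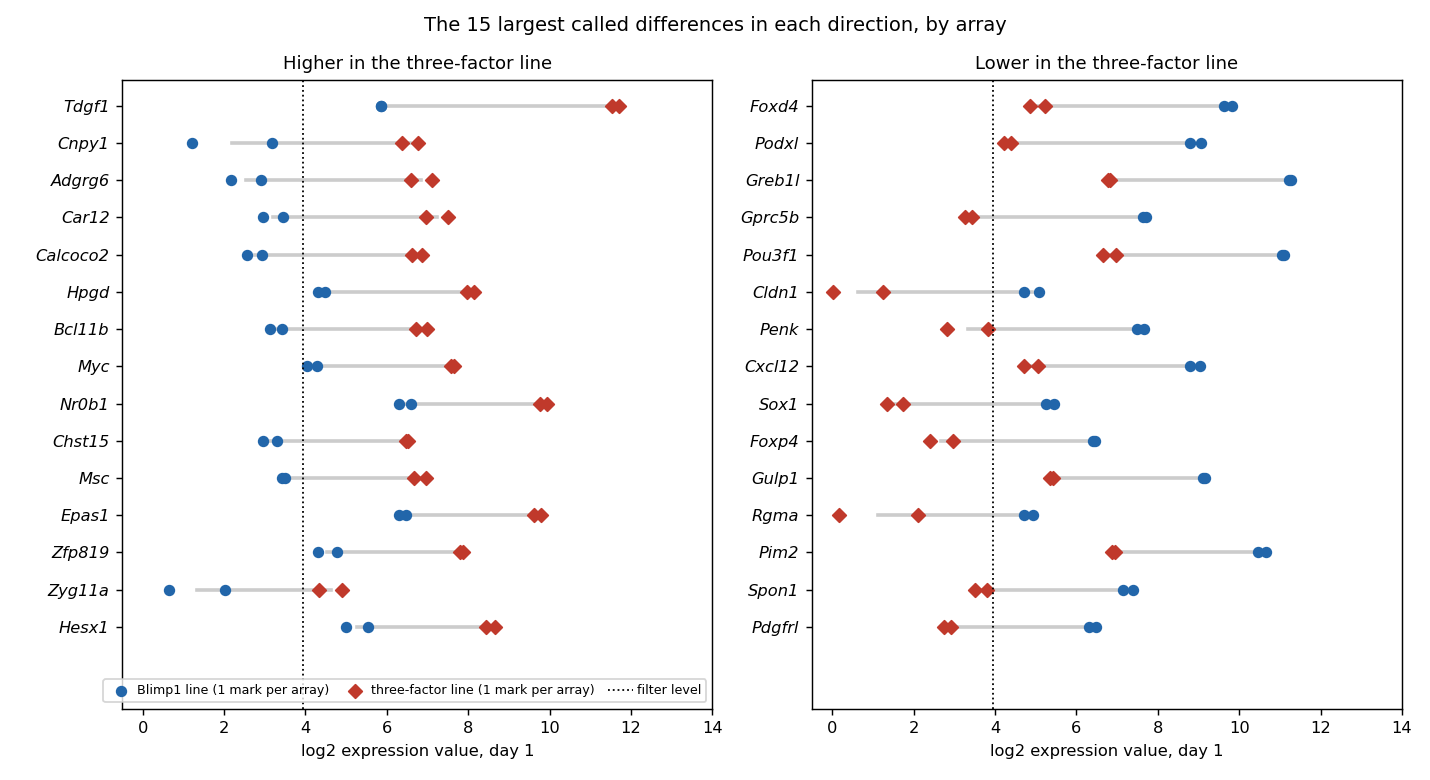
Log2 values on day 1 (x axis) of the 15 largest called rises (left) and falls (right), with clone and expressed-sequence names passed over. Each array has 1 mark, a blue circle for the Blimp1 line or a red diamond for the three-factor line. Grey bars join the group means, and a dotted line marks the filter level of 3.95. The genes were chosen for large differences between these same arrays, so the separation of the groups follows from the choice. Bars that cross the dotted line belong to genes whose lower group is near background.

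The promoter windows of the genes with the largest rise and fall are shown because those genes set the Blimp1 line apart from every other line, and those of Nr0b1 and Fam111a because they hold letters known as binding motifs of the added factors. Windows run from 250 bases before to 50 after a start site on GRCm38.p6 and come from RefSeq; 11234 of the tested genes had at least 1. The Tdgf1 window lies at chr9:110946109-110946408 on the minus strand, that of Foxd4 at chr19:24900967-24901266 on the minus strand, that of Nr0b1 at chrX:86191525-86191824 on the plus strand and that of Fam111a at chr19:12573260-12573559 on the plus strand. Capitals mark the AP-2 palindrome GCCNNNGGC in Nr0b1 and the Prdm14 motif GGTCTCTAA, read on the opposite strand, in Fam111a.
Tdgf1: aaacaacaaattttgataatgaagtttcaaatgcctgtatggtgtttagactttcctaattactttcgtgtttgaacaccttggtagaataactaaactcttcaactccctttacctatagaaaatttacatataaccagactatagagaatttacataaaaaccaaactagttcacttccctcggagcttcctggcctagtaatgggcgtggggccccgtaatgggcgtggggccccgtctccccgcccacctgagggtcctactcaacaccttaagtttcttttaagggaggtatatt
Foxd4: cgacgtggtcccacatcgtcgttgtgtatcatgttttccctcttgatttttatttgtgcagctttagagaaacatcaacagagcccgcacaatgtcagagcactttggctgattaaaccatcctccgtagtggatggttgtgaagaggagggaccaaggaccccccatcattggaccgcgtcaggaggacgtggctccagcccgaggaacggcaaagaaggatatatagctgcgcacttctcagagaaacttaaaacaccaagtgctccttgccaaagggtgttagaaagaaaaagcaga
Nr0b1: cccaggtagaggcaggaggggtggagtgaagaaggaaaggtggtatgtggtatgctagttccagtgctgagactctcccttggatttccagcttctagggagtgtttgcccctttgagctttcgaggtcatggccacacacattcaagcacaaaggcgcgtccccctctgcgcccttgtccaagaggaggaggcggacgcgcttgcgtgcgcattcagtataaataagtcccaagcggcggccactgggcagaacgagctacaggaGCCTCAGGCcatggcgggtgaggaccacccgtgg
Fam111a: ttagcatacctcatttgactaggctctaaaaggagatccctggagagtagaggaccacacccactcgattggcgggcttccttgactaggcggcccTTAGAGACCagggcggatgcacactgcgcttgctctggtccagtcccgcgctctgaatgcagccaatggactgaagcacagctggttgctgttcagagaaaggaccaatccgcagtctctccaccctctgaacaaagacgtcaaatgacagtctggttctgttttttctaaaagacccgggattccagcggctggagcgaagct

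Over both strands, the AP-2 palindrome was found in 24.0% of the 14348 windows of all tested genes, in 25.6% of the 340 windows of genes that rose and in 25.1% of the 602 windows of genes that fell. The Prdm14 motif was found in 32 of all windows (0.223%), in 0 of the 340 and in 5 of the 602 (0.831%). Those 5 windows, 2 of which overlap, belong to Fam111a, Nap1l5, Tenm4 and Gm15417, which were named after their values were seen. Fam111a, a DNA replication protein, fell by 2.88 ± 0.09 (adjusted p = 7.06e-10), Tenm4, a teneurin of neural development, by 3.00 ± 0.38, Nap1l5 by 1.58 ± 0.11 and Gm15417 by 1.07 ± 0.15, and the three-factor mean of Nap1l5 lay under the filter level. These shares are counts of letters and carry no test, and the Tdgf1 and Foxd4 windows held neither motif.

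Among all genes 2.48% rose and 3.96% fell, and these shares are the scale for the counts of this and the following lists. Of 18 genes of early germ cells tested, 7 rose with 3 factors, 1 fell and 10 were not called. The list's median difference was 0.86 beside -0.03 for all genes. Dppa3 (stella), the classic marker of specified germ cells, read 11.41 and 11.51 in the three-factor line against 8.31 and 9.25 in the Blimp1 line, a difference of 2.68 ± 0.28 (adjusted p = 1.67e-05). The Blimp1 line itself was above the parental mean of 6.10, and the Prdm14 line was at 9.74. Ifitm3 (fragilis), a membrane protein of early germ cells, read 11.67 and 11.68 against 9.87 and 10.13, with a difference of 1.68 ± 0.11. The parental line was at 8.21 and the Prdm14 line at 11.31. Lrrc34 (2.32 ± 0.37) and Tdrd5, a piRNA pathway gene (1.04 ± 0.11), also rose. The Lrrc34 call ended with the 4 compared arrays alone (adjusted p = 0.0541) and the Tdrd5 call without Blimp1 replicate 2 (0.94).

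The X-linked homeobox genes Rhox6 and Rhox9 and the HMG factor Sox15 were highest in the three-factor line. Rhox9 read 6.13 and 6.90 against 3.27 and 4.12, a difference of 2.82 ± 0.36 (adjusted p = 8.78e-05), and was at 4.29 in the Prdm14 line. Rhox6 read 5.01 and 5.99 against 2.72 and 2.57, and 2.73 in the Prdm14 line. Sox15, which marks germ cells early, read 7.39 and 7.35 against 5.84 and 5.83, and 6.53 in the Prdm14 line. None of the 3 was called in the Prdm14 line against the parental line, and for none was the difference between the comparisons called. The Blimp1-line means of Rhox6 and Rhox9 lay under the filter level, and the call of Rhox6 was lost without three-factor replicate 2 (adjusted p = 0.0702). Pdpn, a mucin-type surface protein on the list, read 8.33 and 8.29 against 10.54 and 10.44 and fell by 2.18. Kit (0.99 ± 0.12), Ddx4 (0.93), Alpl (0.79) and Dnd1 (0.44) were not called, nor was Ifitm1, a relative of Ifitm3, which was lower (-0.58 ± 0.13) with means of 10.36 and 10.94, and Nanos3 was not among the tested genes.

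Of 18 later germ cell and meiosis genes tested, 4 rose and 0 fell, with a median of 0.62. Dazl, an RNA-binding protein of germ cells, read 6.62 and 6.74 against 5.49 and 5.76 (1.05 ± 0.14), Stk31 differed by 1.08 ± 0.19, Hormad1, a protein of meiotic chromosome axes, by 1.18 ± 0.30 and Morc1, a silencer of transposons, by 1.75 ± 0.27. Dazl and Hormad1 were no higher on day 1 than in the three-factor EpiLCs, where their means were 6.88 and 8.01. The calls of Dazl, Stk31 and Hormad1 each ended when Blimp1 replicate 1 was left out, with differences of 0.92, 0.87 and 0.76, and that of Morc1 with the 4 compared arrays alone (adjusted p = 0.0516). Leaving out three-factor replicate 1 ended the Stk31 call as well, and leaving out replicate 2 those of Dazl and Hormad1. The 14 genes not called ranged from -1.05 for Asz1 to 0.91 for Stag3, with Rec8 at -0.51, Dmc1 at -0.47 and Piwil2 at 0.87.

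Apart from the 3 factor genes, naive pluripotency genes formed the list with the highest median, 1.50, and 11 of 18 rose while 0 fell. Besides Nr0b1 and Jam2 they were Tcl1, Tfcp2l1, Pecam1, Esrrb, Zfp42 (Rex1), Klf5, Manba, Mybl2 and Dppa5a. Jam2 was already called higher in EpiLCs before doxycycline. In the change from EpiLCs to day 1, 10 genes of the list were called higher and 1 lower. Tcl1, a co-activator of Akt kinases, read 8.13 and 8.16 against 5.11 and 5.71, a difference of 2.73 ± 0.23 (adjusted p = 2.69e-06). Tcl1 was at 3.07 in the parental and 7.70 in the Prdm14 line. Esrrb, an orphan nuclear receptor, read 9.06 and 8.90 against 7.26 and 7.23, and Tfcp2l1 read 8.20 and 8.20 against 6.00 and 6.56. Both were called higher in the Prdm14 line than in the parental line as well, by 2.56 and 2.82. The Blimp1-line mean of Pecam1 lay under the filter level. Klf4 (1.46 ± 0.52, adjusted p = 0.0559), Klf2 (0.79), Tet2 (0.28) and Tbx3 (-0.20) were not called.

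Of the 14 core pluripotency genes, 6 rose and 0 fell, with a median of 0.70. Nanog read 11.40 and 11.42 against 9.91 and 10.21, a difference of 1.35 ± 0.12 (adjusted p = 3.87e-06), and its EpiLC means were 7.84 and 7.67. Zfp296, a zinc finger factor of stem cells, rose by 2.28 ± 0.11, Fgf4 by 1.78 ± 0.12, Rex2 by 1.71 ± 0.27, Gdf3 by 1.49 ± 0.12 and Dppa2 by 1.11 ± 0.15. Other kept probe sets of Fgf4 gave 1.90, 1.16 and 0.12, the Dppa2 call ended without three-factor replicate 1 (0.97) or Blimp1 replicate 1, and the Blimp1-line mean of Rex2 lay under the filter level. Sox2 read 12.52 and 12.57 against 11.80 and 11.86, a difference of 0.71 that did not reach the size for a call. Its parental mean was 10.71, below all 4 arrays. Pou5f1 (0.34), Sall4 (0.03) and Lin28a (-0.24) were not called.

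Primed epiblast genes split. Of 19 tested, 7 fell and 5 rose, with a median of -0.40. With Pou3f1, Foxd4 and Pim2, the genes that fell were the HMG factors Sox3, Sox4 and Sox11 and the zinc finger factor Sall2, by 1.24 to 2.07. Sox3 read 6.29 and 6.43 against 8.26 and 8.60, and another kept probe set of Sox3 gave -0.86. The other kept probe sets of Sox4 gave -1.84 to -0.68. The genes that rose were Hesx1, Tcf15, Id4, Nkx1-2 and Lhx5. Another kept probe set of Nkx1-2 gave 0.65 in place of 2.18. Tcf15, a bHLH factor of cells leaving naive pluripotency, read 8.86 and 8.61 against 5.60 and 5.36 and was at 10.18 in the Prdm14 line and 6.37 in the parental line. Lhx5 (1.46 ± 0.47) lost its call when any 1 of the 4 arrays was left out, and its Blimp1-line mean lay under the filter level. Otx2 read 8.92 and 8.94 against 9.33 and 9.04 and Fgf5 read 9.57 and 9.76 against 9.67 and 9.54, and neither was called. The Otx2 parental mean was 10.68 and that of Fgf5 10.59.

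Neural and anterior ectoderm genes had the lowest list median, -0.74, with 7 of 18 lower and 2 higher. Sox1, the earliest neural marker of the group, read 1.35 and 1.73 against 5.44 and 5.25, so its level with 3 factors was near background. Irx3, a homeobox gene of the neural plate, read 4.89 and 5.09 against 8.02 and 8.02, a difference of -3.03 ± 0.13 (adjusted p = 1.66e-08). It was at 8.43 in the parental and 6.11 in the Prdm14 line. Msi1, an RNA-binding protein of neural stem cells, fell by 1.60 and Stmn4 by 1.90. Pax6 (-1.24) and Neurog3 (-1.19) were called, but another Pax6 probe set gave 0.29, and both Neurog3 means were under the filter level, so that its difference was 0 after flooring. Of the rest, Zic2 (-0.91), Nes (0.94) and Six3 (-0.39) were not called.

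**Figure D3:**
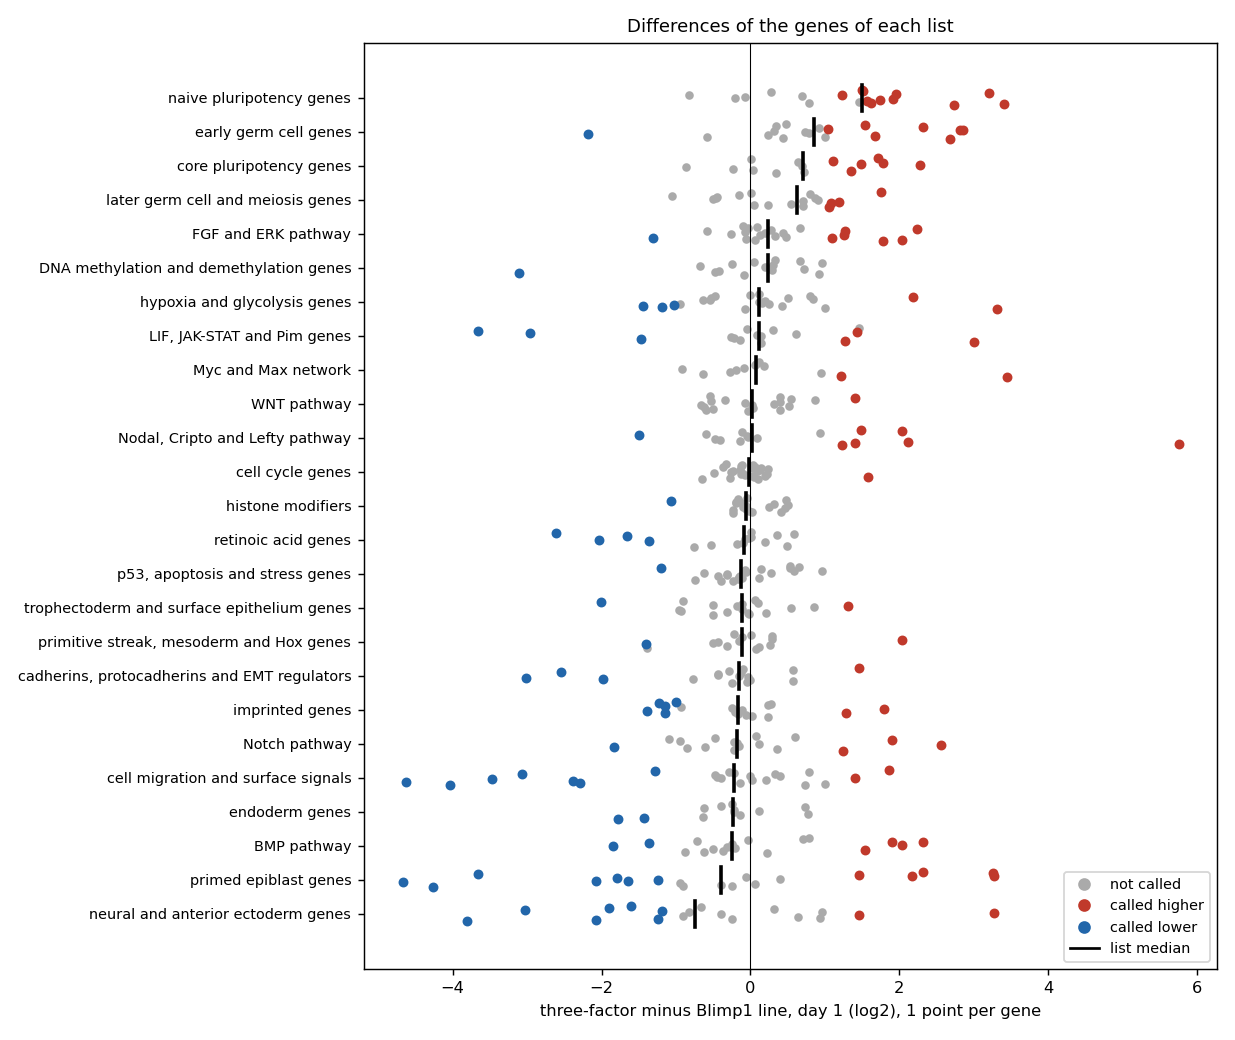
Each point is 1 gene of a list, placed by its three-factor minus Blimp1 difference on day 1 (x axis, log2), in red where it rose, blue where it fell and grey where it was not called, and black bars are list medians. Lists are ordered by median, from naive pluripotency at 1.50 to neural and anterior ectoderm at -0.74. The factors' own genes are not shown, nor are the marker lists of EpiLC and aggregate identity, fibroblasts or feeders, visceral or primitive endoderm and 2-cell-like cells.

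Among 16 genes of DNA methylation and demethylation, 1 was called. Dnmt3b, a de novo methyltransferase, read 10.08 and 9.66 against 12.98 and 12.97, a difference of -3.10 ± 0.10 (adjusted p = 1.48e-09). Its mean was 13.21 in the parental line and 11.14 in the Prdm14 line, and the difference exceeded that between the Prdm14 and parental lines by -1.03, a called amount. Dnmt3a, the other de novo enzyme, read 9.59 and 9.45 against 8.95 and 8.26 (0.92 ± 0.26) and was not called, beside a parental mean of 10.79. Uhrf1, which recruits the maintenance enzyme, differed by -0.42 ± 0.07, and Tet1, which oxidises methylcytosine, by 0.72 ± 0.18. Dnmt3l was at 5.96 and 5.36 against 5.78 and 6.49. Of 19 histone modifiers tested, 1 fell and 0 rose: Kdm6b, an H3K27 demethylase, by 1.07 ± 0.15, a call that ended when probe sets were averaged (-0.77) and without three-factor or Blimp1 replicate 1 (-0.81 and -0.94). Ezh2, Ehmt1 and Setdb1 differed by -0.07, -0.23 and 0.02.

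In the Nodal pathway, 6 of 16 genes rose and 1 fell, with a median of 0.02. Nodal itself, the TGFβ-family ligand, read 8.81 and 8.63 against 7.30 and 7.68, a difference of 1.23 ± 0.14 (adjusted p = 3.34e-05). Both lines were below the parental mean of 10.37, and the Prdm14 line was at 8.53. The secreted inhibitors Lefty1 (1.40 ± 0.17) and Lefty2 (2.12 ± 0.21) rose. Lefty2 read 10.25 and 10.23 against 7.75 and 8.49, and was at 9.67 in the parental line. Smad7, an intracellular inhibitor of TGFβ and BMP signalling, read 9.25 and 9.20 against 7.16 and 7.22, beside 9.30 in the parental line. Tdgf1, Lefty2 and Smad7 thus lay within 1 of their parental means with 3 factors and below them with Blimp1. Foxh1, the partner of Smad2 in the nucleus, fell by 1.50 ± 0.09, and the receptors Acvr1b, Acvr2a and Acvr2b were not called.

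The BMP list had 4 rises and 2 falls among 19 genes, with a median of -0.26. The receptor gene Bmpr1b rose by 1.53 ± 0.29, a call that ended when probe sets were averaged (0.91). Id3, a target of BMP signalling, read 9.29 and 9.61 against 7.40 and 7.70 (1.90 ± 0.14), and Id4 read 8.87 and 8.92 against 6.30 and 6.87 (2.31 ± 0.23). Id2 went the other way, with 7.39 and 7.49 against 8.74 and 8.86 (-1.36 ± 0.23), and Id1 was not called (-0.26). Other kept probe sets of Id2 gave -1.38 and -0.44. Id2 was at 6.50 in the parental line, below both lines. Smad6, an inhibitory Smad, fell by 1.85 ± 0.38 with 1 three-factor array at 2.26 and the other at 4.02, and its call ended without the former (-0.97). Bmp4, Bmpr1a and Smad1 differed by 0.22, -0.36 and -0.32. In the WNT list 1 of 19 genes rose, the ligand Rspo3 (1.41 ± 0.24), and the median was 0.02.

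FGF and ERK pathway genes rose in 6 of 22 cases and fell in 1, with a median of 0.24. The ligands Fgf4, Fgf8 (2.04 ± 0.44) and Fgf17 (1.10 ± 0.29) and the feedback genes Dusp4 (1.25 ± 0.28) and Spry4 (1.27 ± 0.14) rose with the effector Etv4 (2.24 ± 0.37), and the receptor gene Fgfr1 fell by 1.31 ± 0.11. Fgf8 read 5.21 and 5.07 against 3.44 and 2.77, beside 5.81 in the parental line. The Blimp1-line mean of Fgf8 lay under the filter level. Dusp4 and Fgf17 lost their calls without Blimp1 replicate 1 (0.83 and 0.97), Fgf17 also without three-factor replicate 2 (0.96), Etv4 with the 4 compared arrays alone (adjusted p = 0.0881), and Spry4 and Fgfr1 when probe sets were averaged (0.74 and -0.97). In the LIF and JAK-STAT list 3 of 16 rose and 3 fell. The receptor chains Lifr and Il6st rose by 2.99 ± 0.15 and 1.27 ± 0.14, and the kinase gene Pim1 by 1.43 ± 0.15, a call that ended when probe sets were averaged (0.99). Lifr read 9.77 and 10.13 against 6.91 and 7.00, although another Lifr probe set differed by 0.55. Jak2 (-1.47 ± 0.19) and Socs3, an inhibitor of this pathway (-2.96 ± 0.22), fell with Pim2. Socs3 read 2.48 and 3.32 against 5.98 and 5.74, with its three-factor mean under the filter level. Other kept probe sets of Socs3 gave -3.15 and -1.07.

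Myc and Mycn, transcription factors of growth, were the 2 genes called among 12 of the Myc and Max network, and both rose. Myc read 7.64 and 7.58 against 4.05 and 4.29, a difference of 3.44 ± 0.11 (adjusted p = 1.36e-09), and the parental mean was 6.79. Mycn read 11.92 and 11.92 against 10.66 and 10.74. Max, their shared partner, differed by 0.95 and was not called. Of 16 retinoic acid genes 4 fell and 0 rose: the receptors Rarb (-1.36 ± 0.39) and Rarg (-2.04 ± 0.15), the binding protein Crabp2 (-2.62 ± 0.14) and the degrading enzyme Cyp26a1 (-1.66 ± 0.25). Crabp2 read 5.67 and 5.20 against 8.11 and 7.99. Another kept probe set of Rarg gave -0.97. The three-factor mean of Rarb lay under the filter level, and Rarb was called neither after flooring (-0.97) nor without replicate 2 of either line (-1.15 and -0.93).

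**Figure D4:**
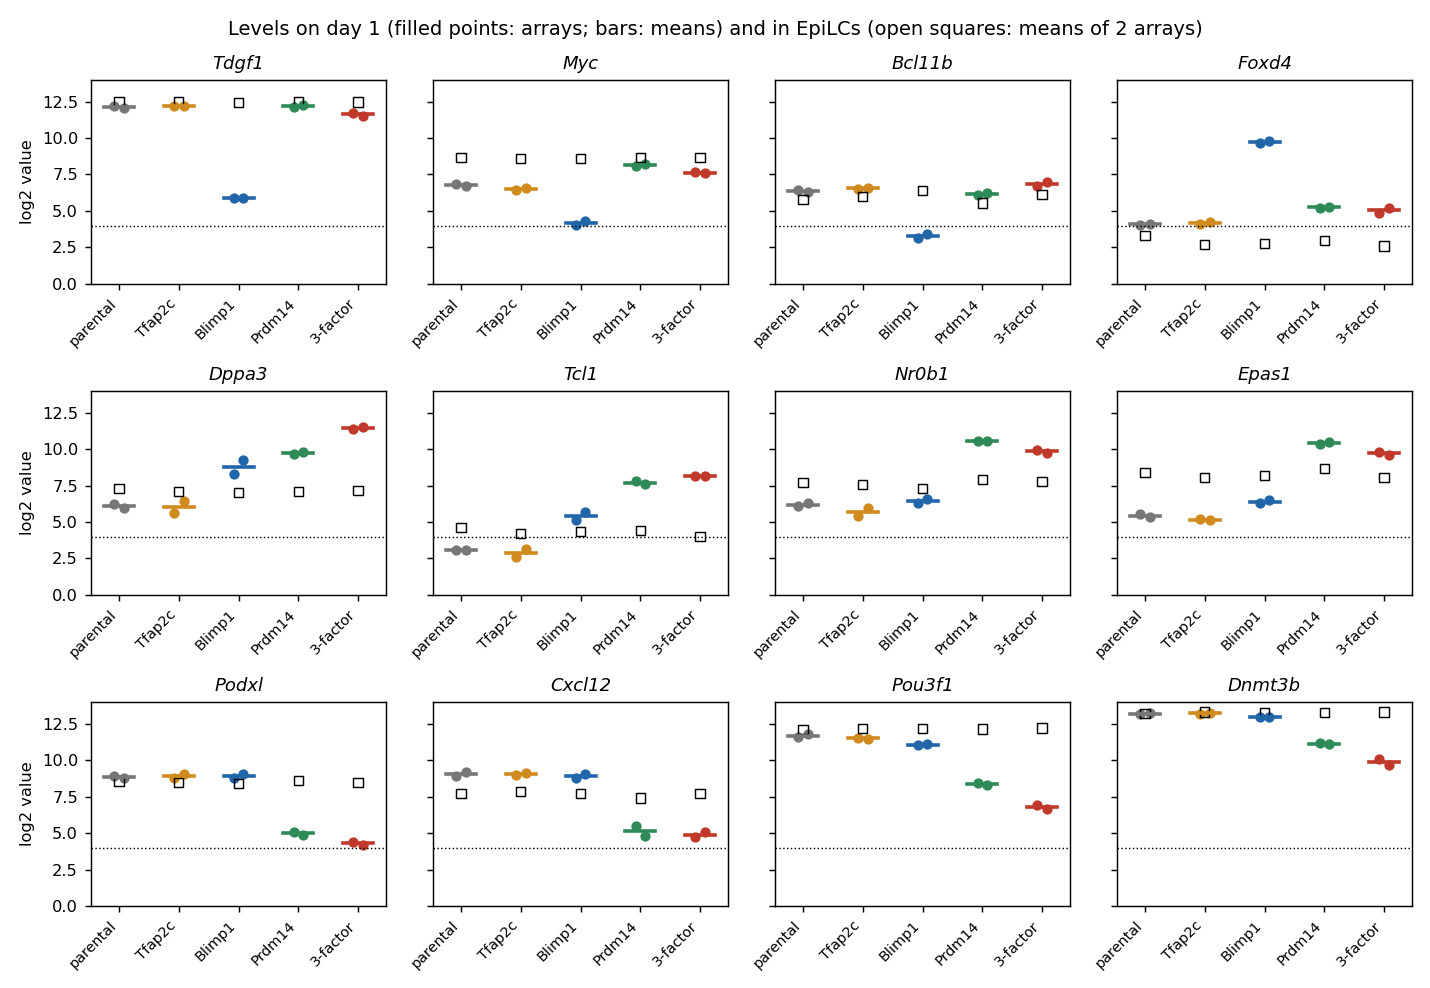
Log2 values (y axis) of 12 genes in the 5 lines on day 1, with a filled point per array and a bar at the mean, open squares for the mean of the same line's EpiLC arrays and a dotted line at the filter level of 3.95. In the top row the Blimp1 line stands apart from the other lines, and in the bottom row the Prdm14 and three-factor lines are both below the others. The genes and their rows were chosen with their values known, so these patterns follow from the choice.

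Of 23 surface and migration genes 7 fell and 2 rose, with a median of -0.22, and falls outnumbered rises among all genes too (3.96% against 2.48%). Besides Podxl and Cxcl12, the falls took Rtn4rl1, a Nogo receptor homologue (-3.48 ± 0.17), the netrin receptor Unc5b (-3.06 ± 0.41), Sema6a (-2.39 ± 0.16), the ectonucleotidase Nt5e (-2.29 ± 0.28) and the laminin receptor chain Itga6 (-1.28 ± 0.08). Unc5b read 5.33 and 5.43 against 8.75 and 8.14. Nt5e was at 8.30 in the parental line, so its level was already lower in the Blimp1 line, at 5.35 and 5.74. Other kept probe sets of Sema6a (-0.27 and -0.12) and Nt5e (-0.26) showed little difference, the Sema6a call ended when probe sets were averaged (-0.93), and the three-factor means of Rtn4rl1, Sema6a and Nt5e were under the filter level. The ephrin receptor Epha2 rose by 1.41 ± 0.12 and the integrin chain Itgb3 by 1.86 ± 0.51, and the latter, with a Blimp1-line mean under the filter level, lost its call after flooring (0.93) and without three-factor replicate 2 or either Blimp1 replicate. Cxcr4 was at 4.15 and 4.45 against 3.03 and 4.10 and was not called.

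Among 17 cadherins and regulators of the epithelial to mesenchymal transition, the protocadherins Pcdh18 (-3.02 ± 0.35) and Pcdh1 (-1.98 ± 0.28) and the repressor Zeb2 (-2.55 ± 0.34) fell and the epithelial splicing factor Esrp2 rose (1.46 ± 0.11). The three-factor means of Pcdh1 and Pcdh18 lay under the filter level. Other kept probe sets gave -2.55, -2.32, -1.12 and -1.01 for Zeb2 and 0.65 for Esrp2. Cdh1 (-0.26), Cdh2 (-0.05) and Vim (-0.28) were not called. Of 18 trophectoderm and surface epithelium genes, tested because AP-2 factors act in those tissues, Cldn4, a tight junction protein, read 7.69 and 7.59 against 9.70 and 9.59 and fell by 2.00. Esx1 was called higher (1.32 ± 0.35) from a Blimp1-line mean under the filter level, a call lost under 6 settings, among them flooring (0.33). The summed linear level of this list was 3105 to 3178 in the three-factor arrays and 4255 to 4618 in the Blimp1 arrays, beside 5386 to 5509 in the parental arrays. Cldn7, Krt18, Cldn6, Krt8 and Cldn4 carried most of that sum. Gata2 (means of 5.47 with 3 factors and 5.49 with Blimp1), Tfap2a (5.26 and 5.29) and Hand1 (5.94 and 6.05) differed little. Ascl2 (4.95 and 4.40) and Tead4 (4.88 and 4.03) were not lower. Keratin genes Krt8, Krt18 and Krt19 were not called, with -0.32, -0.94 and -0.96.

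How far a line with Prdm14 alone showed the same genes was read from the Prdm14 and parental lines on day 1, 4 arrays whose means do not enter the main difference, although they share its estimate of the spread, its filter and its choice of probe sets. There, 305 genes rose (2.18%) and 446 fell (3.19%) in the Prdm14 line. Of the 347 genes that rose with 3 factors over Blimp1, 170 were among those 305 (49.0% of the former and 55.7% of the latter), and 4 were called lower. Of the 555 that fell, 298 were among the 446 (53.7% and 66.8%), and 2 were called higher. Across the 14002 genes, which are not independent replicates, the differences of the comparisons had a Pearson r of 0.616. In the Tfap2c line against the parental line 3 genes were called, all lower (0.0214%), while 925 had an unadjusted p under 0.05, and r with the main comparison was -0.07. They were Gnptab (-1.02), Zfp936 (-1.08) and H13 (-1.72), named because they are so few. For some genes, picked after their values were seen, the Prdm14-line and three-factor differences were close. They were -3.94 and -4.03 for Cxcl12, -3.46 and -3.48 for Rtn4rl1, 1.63 and 1.61 for Zfp42 and 2.14 and 2.28 for Zfp296. For others they were further apart. Epas1 means were 10.4 and 5.4 in the Prdm14 and parental lines, beside 9.7 and 6.4 in the three-factor and Blimp1 lines. Those of Pou3f1 were 8.37 and 11.68, beside 6.80 and 11.07.

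**Figure D5:**
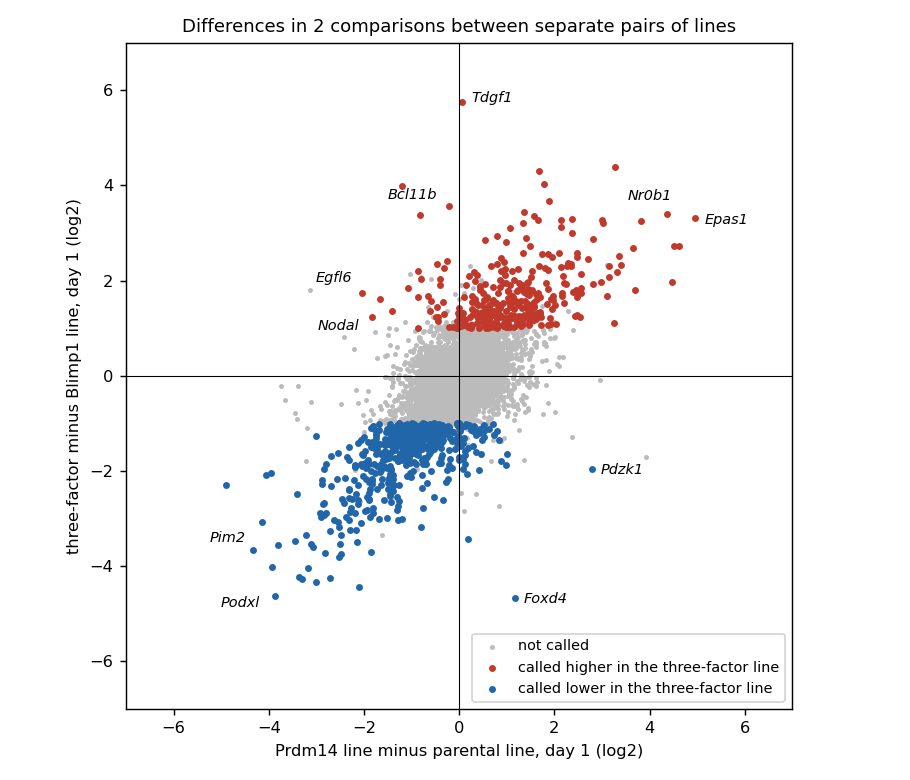
Each of the 14002 genes is placed by its Prdm14 minus parental difference (x axis, log2) and its three-factor minus Blimp1 difference (y axis, log2) on day 1, with genes called on the y axis comparison in red (higher) and blue (lower). Most called genes lie at the lower left and upper right, and Tdgf1 and Foxd4 lie far from that diagonal.

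The size of the difference itself differed between these comparisons for 260 genes (1.86%), 133 upward and 127 downward. The largest upward values were those of Tdgf1 (5.70), Calcoco2, Chst15, Egfl6, Bcl11b and Has2. Has2, a hyaluronan synthase, was at 3.72 and 3.82 in the three-factor line, 3.88 and 4.10 in the Blimp1 line and 3.60 in the Prdm14 line, against 7.34 in the parental line. The largest downward values were those of Foxd4 (-5.84), Gprc5a, Pdzk1, Fbxo15, Dmrt3 and Pclo. Fbxo15, an F-box gene of stem cells, had day 1 means of 6.76 in the parental and 9.73 in the Prdm14 line, and read 9.75 and 9.78 with 3 factors against 9.68 and 10.01 with Blimp1. Pdzk1, a scaffold protein, read 6.23 and 5.96 against 7.84 and 8.25 in the Blimp1 line, and its means were 6.32 in the Prdm14 and 3.54 in the parental line. The Blimp1 line was thus the highest for Pdzk1, while for Has2 and Fbxo15 the lines with a Blimp1 or Prdm14 transgene had similar levels.

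The 6 genes called in opposite directions, named after their values were seen, were Nodal, Egfl6, Gpha2 and Pkdcc (higher here, lower in the Prdm14 line) and Foxd4 and Pdzk1 (the reverse). Egfl6, a secreted EGF-repeat protein, read 4.78 and 4.94 against 2.70 and 3.53 and was at 2.47 in the Prdm14 line and 4.51 in the parental line. Its Blimp1-line mean lay under the filter level, and its call ended after flooring (0.91) and without Blimp1 replicate 1 (1.33). Gpha2 and Pkdcc differed by 1.60 and 1.37 here and by -1.68 and -1.42 in the Prdm14 line. Against the parental line, the Blimp1 line itself had 359 called genes (2.56%), a comparison that uses the same Blimp1 arrays and is given for its count alone.

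Markers of other cells that aggregates could hold were read from lists. Of 8 fibroblast or feeder genes tested, Thy1 (-3.04 ± 0.20), Acta2 (-1.33 ± 0.38) and Dcn (-1.01 ± 0.19) were called lower with 3 factors. The other 5 were not called, with Fbln1 at 0.43, Lum at 0.42, Pdgfra at 0.33, Col3a1 at 0.05 and Col1a2 at -0.65. The summed linear level of 12 such genes was 452 to 472 in the three-factor arrays, 705 to 853 in the Blimp1 arrays and 595 to 598 in the parental arrays. Thy1 was at 6.25 and 6.14 in the EpiLCs of the lines. The calls of Acta2 and Dcn ended without Blimp1 replicate 1 (to -0.89 for Dcn), that of Acta2 also without three-factor replicate 2 (-1.10) and that of Dcn with median centring (-0.94). Of 8 visceral or primitive endoderm genes tested, Foxa2 was called (-1.43 ± 0.35) but not after flooring (-0.87), and the summed levels were 222 to 229 and 221 to 225. For 2-cell-like cells the summed levels were 1680 to 1780 and 1201 to 1253, and 0 of 2 tested genes were called. Eif1a, at 10.72 and 10.22, carried most of that sum, and 3 of the 5 genes on the array were under the filter level. None of the markers was at 0 on both arrays of a group. The control probe sets for Actb differed between the 3′ and 5′ ends by 0.42 and 0.42 in the three-factor arrays and 0.31 and 0.33 in the Blimp1 arrays. The part of these values in the other differences was not tested.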

How the data were processed

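RNA from 20 samples was measured on a 1-colour Affymetrix array. The values are the authors' deposited log2 values, 1 per probe set and array. The base was inferred from their range. Their normalization, probe summary and program were not given in the sources used here. Per the labels' protocols, RNA was purified with RNeasy and labelled with biotin in a one-cycle protocol.

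Of 45101 probe sets, 34945 had 1 gene in the platform annotation, 932 had several and 9160 had none, and 64 were controls. Probe sets were kept where the highest group mean reached the 40th percentile, 3.95. A gene is represented by its brightest kept probe set (mean of the 20 arrays), for 14010 genes. Y-linked genes, Erdr1 and Mid1 (8 genes) were fitted and then left out.

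Means of 10 groups were fitted over 20 arrays with limma 3.58.1 in R 4.3.3 (lmFit and eBayes, two-sided, Benjamini-Hochberg over all genes). Tables and plots used Python 3.11.15, pandas 2.3.3 and matplotlib 3.10.9. Simulated data for the main comparison had 14010 genes. Of their changes, 40% of size 1, 94% of 1.5, 98% of 2 and 96% of 3 were called. There was 1 false call among 13810 unchanged genes. A change of 1 equals the size needed for a call, so its share reflects that limit too. Simulated group means were equal apart from the changed genes, which the real ones were not.

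Named genes are the 15 largest called differences each way, called members of 30 gene lists, the factors' genes, uncalled list members whose level in the Blimp1 line was called different from the parental line, and the 6 largest called differences each way in the EpiLC comparison, the interaction and the comparison with the Prdm14 line. In each of these rankings, names of clones and expressed sequences, such as those with Rik, Gm or LOC, were passed over. Uncalled list members are named with their values, and other genes are marked as chosen after their values were seen. The comparison, lists and settings were chosen with earlier results of these data known. Alternatives were the filter, flooring at 3.95, averaged probe sets, median centring, quantile normalization, fewer arrays, a prior trend, treat, a replicate block and leaving out each array.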

Additional observations from a re-analysis of the deposited data

Results flagged for a closer look

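The change from EpiLCs to day 1 differed between the three-factor and the Blimp1 line in 823 genes by the interaction term of limma; aggregation, medium and doxycycline changed together in that step. The largest upward differences were 5.72 for Tdgf1, 5.11 for Zfp385c, 5.05 for Adgrg6, 4.32 for Calcoco2, 4.22 for Car12 and 4.22 for Cnpy1. Zfp385c read 4.32 and 2.76 in the three-factor line on day 1 against 0.45 and 0.76 in the Blimp1 line, means under the filter level, and its day 1 call ended after flooring (0.18). The largest downward differences were -4.81 for Rgma, -4.68 for Greb1l, -4.66 for Podxl, -4.49 for Foxd4, -4.40 for Gprc5b and -4.32 for Pou3f1.

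The three-factor minus Blimp1 difference also differed from the Prdm14 minus parental difference, in 260 genes by a contrast of limma. The values were 5.70 for Tdgf1, 5.19 for Calcoco2, 4.18 for Chst15, 3.78 for Egfl6, 3.77 for Bcl11b and 3.52 for Has2 upward. They were -5.84 for Foxd4, -5.63 for Gprc5a, -4.74 for Pdzk1, -3.04 for Fbxo15, -2.86 for Dmrt3 and -2.64 for Pclo downward. Gprc5a, a receptor induced by retinoic acid, read 7.20 and 6.99 with 3 factors and 8.72 and 8.87 with Blimp1, beside 3.83 in the parental line and 7.76 in the Prdm14 line. Other kept probe sets of Dmrt3 differed by -2.35 and 0.29 in the main comparison, where the one used differed by -1.88. Groups of 2 arrays are too small for a test of single outlying arrays.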

How the results depend on the processing

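Over 15 alternative settings the main comparison gave 690 to 937 called genes, 258 to 401 higher and 432 to 583 lower, and no named gene reversed. The replicate block gave 902, of which 896 were called without it; leaving out 1 array gave 860 to 921. The fit then takes the spread of the single remaining array from the other groups. Of 143 named genes called, 102 were called in every setting, and 41 lost the call in at least 1, most often with the 4 compared arrays alone (18), treat (17) and without Blimp1 replicate 1 (14). Median centring moved the share of higher genes among those called from 38.5% to 44.8%, and quantile normalization to 42.6%.

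The 5 genes called in EpiLCs became 3 with averaged probe sets, treat or flooring, 9 with a prior trend, 7 with the replicate block and 5 to 11 without 1 array. The 3 genes of the Tfap2c comparison became 1 with centring, averaging, quantile normalization or treat, and 1 to 12 without 1 array. Treat lowered the interaction count from 823 to 508 and the count against the Prdm14 comparison from 260 to 73; treat asks for more than a difference of 0.5, and the other causes were not tested. Of 82 named genes with several kept probe sets, 36 had another of opposite sign or less than 0.5 times the size. Signal near background limits the sizes of differences from a group mean under 3.95. Replicate numbers did not pair the samples: over 45 pairs of groups, deviations correlated at -0.065 to 0.196.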

Other observations

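The scale for the list counts in this section is again 2.48% higher and 3.96% lower among all genes. Imprinted genes, which are expressed from 1 parental allele, were called in 7 of 17 cases, 5 lower and 2 higher, with a median of -0.17 beside -0.03 for all genes. Meg3 and Rian, noncoding RNAs of the same imprinted cluster, read 10.80 and 11.43 against 12.46 and 12.06 and 10.34 and 11.07 against 12.33 and 11.85, differences of -1.14 ± 0.18 and -1.38 ± 0.21. The Meg3 call ended without replicate 1 of the Blimp1 or the three-factor line (-0.94 and -0.83), and that of Rian with the 4 compared arrays alone (adjusted p = 0.0771). Ndn (-1.14 ± 0.12), Sgce (-1.23 ± 0.17) and Dcn were lower, and the zinc finger gene Plagl1 (1.28 ± 0.17) and Phlda2 (1.79 ± 0.09) were higher. Peg3, Mest and Igf2 differed by -0.07, -0.17 and 0.24 and were not called. In the Notch pathway the ligands went opposite ways. Jag1 read 7.53 and 7.62 against 4.80 and 5.23 (2.56 ± 0.17), with other probe sets at 2.26 and 0.12, and Dll1 read 6.85 and 6.97 against 8.62 and 8.86 (-1.83 ± 0.22). Notch1 (1.24 ± 0.19) and the target Hey1 (1.90 ± 0.25) rose, and Hes1 (-0.17) was not called.

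Of 23 hypoxia and glycolysis genes, Epas1 and Ndrg1 (2.18 ± 0.51) rose, and the glucose transporter Slc2a1 (-1.19 ± 0.09) and the hexokinases Hk1 (-1.44 ± 0.10) and Hk2 (-1.02 ± 0.12) fell. Slc2a1 read 11.29 and 11.24 against 12.48 and 12.43. Hif1a (-0.07) and Pgk1 (0.14) were not called, and the Hk2 call ended with median centring (-0.96) and without replicate 2 of either line (-0.90 and -0.81). Of 26 cell cycle genes 1 was called, Ccnd3 (1.57 ± 0.08), of which another probe set gave -0.12, and the median was -0.02. Of 22 p53, apoptosis and stress genes 1 fell, Ddit4 (-1.21 ± 0.21), and Cdkn1a and Mdm2 differed by -0.40 and -0.24. Among endoderm genes 2 of 12 fell, Foxa1 (-1.78 ± 0.29) and Foxa2, both with three-factor means under the filter level and without a call after flooring, and Gata6 (0.12) and Sox17 (-0.14) were not called. Of 15 primitive streak, mesoderm and Hox genes, Fgf8 was higher and Msgn1 lower (-1.40 ± 0.36), the latter also lost after flooring (-0.13), and Eomes differed by 0.07.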
